A study of Arabidopsis thaliana with 6 samples.

Results

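Late anthocyanin synthesis is represented here by 9 Arabidopsis thaliana genes, chosen by locus: the reductase DFR (AT5G42800), the dioxygenase LDOX (AT4G22880), the glutathione transferase GSTF12 (AT5G17220), the glycosyltransferases UGT79B1 (AT5G54060), UGT75C1 (AT4G14090) and UGT78D2 (AT5G17050), and the acyltransferases 5MAT (AT3G29590), AT1G03495 and AT1G03940. Of these 9 genes 7 were paired with a probe set, out of 14349 genes so paired on the array. LDOX and GSTF12 were paired with none in the annotation used here and were not analysed here. AT1G03495 and AT1G03940 share 1 probe set, whose signal cannot be divided between them, so 6 probe sets carried the data. The samples were vegetative rosettes of Col-0 plants, 4 weeks old when the treatments began, on 3 Affymetrix ATH1 arrays for plants left without water until a relative water content of 65% was reached and on 3 arrays for plants that stayed watered. The study calls the 3 replicates of each group independent, and how many plants went into a replicate is not given.

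Anthocyanins are the red to purple flavonoid pigments that leaf cells store in the vacuole, and their accumulation in leaves under drought, cold, strong light and nutrient shortage is well known. The pathway branches from general flavonoid synthesis at dihydroflavonols. DFR reduces these to leucoanthocyanidins, LDOX oxidises them to the coloured anthocyanidins, and UGT78D2 adds the first glucose, which stabilises the pigment. The molecule is then decorated: UGT79B1 adds xylose to that glucose, AT1G03495 and AT1G03940 encode acyltransferases that attach coumaroyl groups, UGT75C1 adds glucose at the other main position of the ring, and 5MAT adds malonate to that glucose. GSTF12 takes part in the delivery of the finished pigment to the vacuole.

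All 6 anthocyanin probe sets rose under water deficit, and none overlapped between the groups. The rise was 25.1-fold for DFR and 5.42-fold for UGT78D2, and at least 28.9-fold for UGT79B1, 26.1-fold for UGT75C1, 19.0-fold for the probe set of AT1G03495 and AT1G03940, and 4.33-fold for 5MAT. Folds given as a lower bound were taken against the background floor of 18.5 normalized units (4.21 on the log2 scale), because at least 2 of the 3 watered arrays did not exceed it. In the limma fit over all 13703 tested probe sets, 21.8% were called higher under water deficit at an adjusted p under 0.05, and 28.4% had every water deficit array above every watered array. The probe sets of UGT75C1, 5MAT and the acyltransferase pair stayed at the floor in every watered sample and entered the test through the water deficit arrays alone. Only a rise could be seen for them, and 81.1% of all probe sets of that kind were called higher. DFR and UGT78D2 were above the floor on all 6 arrays, where 20.3% of probe sets were called higher. In rosette RNA a higher signal from more cells that express a gene and one from more transcript per cell cannot be told apart.

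**Figure D1:**
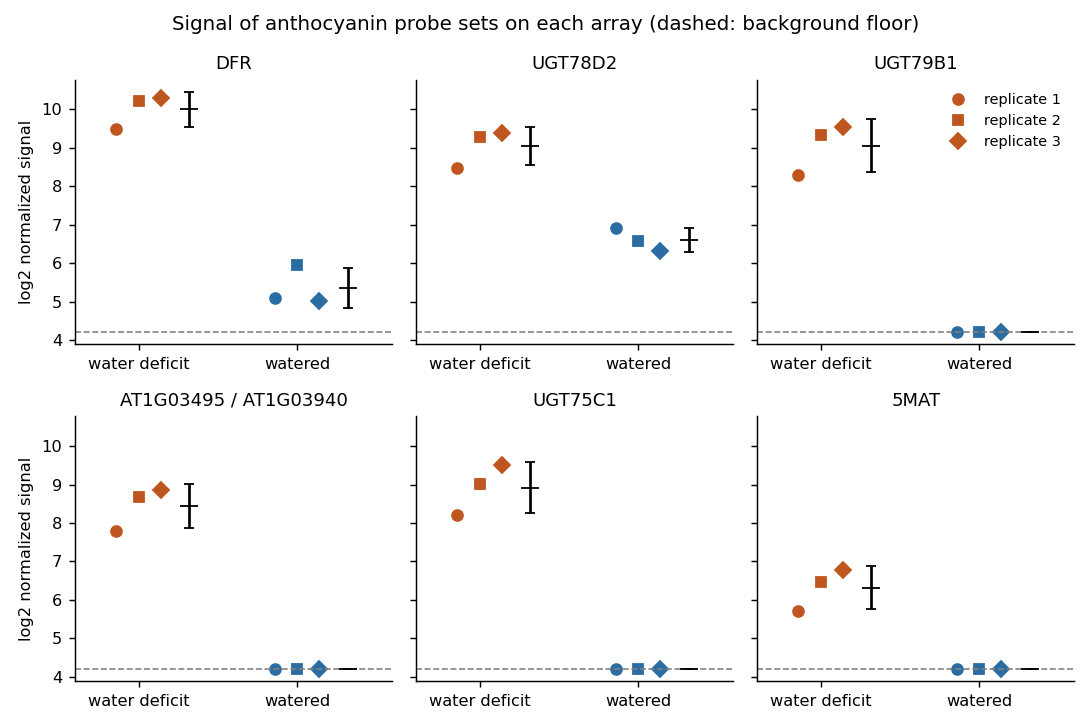
Log2 normalized signal (vertical axis) of the 6 anthocyanin probe sets on each array, with water deficit arrays in orange and watered arrays in blue, marker shape for the replicate number, and the mean with its SD (n = 3) as a black bar. Every water deficit array lies above every watered array, and only DFR and UGT78D2 exceed the dashed background floor at 4.21 on every watered array.

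The first committed step had a low but measurable signal in watered plants. DFR had a normalized signal of 715, 1197 and 1269 units on water deficit arrays 1, 2 and 3, against 34.2, 62.2 and 32.4 units on watered arrays 1, 2 and 3. The lowest water deficit array was therefore far above the highest watered array, which was replicate 2. On the log2 scale DFR averaged 10.01 ± 0.46 under water deficit and 5.36 ± 0.52 in watered rosettes (SD, n = 3 each), a log2 fold change of 4.65 ± 0.33 (SE, 95% interval 3.90 to 5.40, limma adjusted p = 3.76e-05). As deposited, before any scaling between arrays, DFR read 371, 1807 and 1617 intensity units on the water deficit arrays and 13.2, 72.6 and 29.3 units on the watered arrays. Its change ranked 59 among the 13703 tested probe sets, counted from the largest rise.

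UGT78D2, the flavonoid 3-O-glucosyltransferase that also acts on flavonols, was well above the floor in watered rosettes too. It had 357, 619 and 665 normalized units on water deficit arrays 1, 2 and 3, against 122, 95.4 and 79.8 units on watered arrays 1, 2 and 3. Replicate 1 was the lowest of the water deficit arrays and the highest of the watered arrays, and the groups still did not overlap. The log2 signal averaged 9.04 ± 0.49 under water deficit and 6.61 ± 0.31 in watered rosettes (SD, n = 3 each), with a log2 fold change of 2.44 ± 0.28 (SE, 95% interval 1.78 to 3.10, limma adjusted p = 0.000383). As deposited, UGT78D2 read 186, 985 and 899 intensity units on the water deficit arrays and 44.8, 112 and 70.1 units on the watered arrays, and here water deficit replicate 1 lay above all 3 watered arrays as well.

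The sizes of these 2 fully measured changes were set against each other within arrays. The log2 signal of DFR minus that of UGT78D2 was 0.93 or more on each water deficit array and lay between -1.83 and -0.62 on the watered arrays, so the fold of DFR was 4.63 times that of UGT78D2. The exact permutation test over arrays gave p = 0.1 (two-sided, adjusted p = 0.1 over 3 such pairs), which is the smallest p that 3 arrays against 3 can give. This test exchanges all 6 arrays freely, and an exact test within the 3 numbered pairs gave p = 0.25 for each of the 3 comparisons, again the smallest it allows. The 3 pairs were chosen after their values had been seen. On the water deficit arrays the difference had an SD of 0.04, against 0.61 on the watered arrays, so both transcripts kept nearly the same proportion among the 3 stressed replicates.

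The xylosyltransferase UGT79B1 had 312, 649 and 752 normalized units on water deficit arrays 1, 2 and 3, against -0.16, 18.5 and 14.5 units on watered arrays 1, 2 and 3. Watered array 2 exceeded the floor by less than 0.1 unit, and the other 2 watered arrays were below it. The mean log2 signal was 9.06 ± 0.68 under water deficit and 4.21 in watered rosettes, where the floor sets the value (SD, n = 3). The log2 fold change was at least 4.85 (limma adjusted p = 2.98e-05). As the watered signal of UGT79B1 lay at the floor, little but a rise could be seen. Its 3 water deficit arrays were enough for it to be tested.

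UGT75C1, the anthocyanin 5-O-glucosyltransferase, had 295, 520 and 732 normalized units on water deficit arrays 1, 2 and 3, against -1.14, -6.16 and 4.48 units on watered arrays 1, 2 and 3. All 3 watered arrays were at background, and the log2 fold change of at least 4.71 (limma adjusted p = 3.11e-05) is measured from the floor. The mean log2 signal under water deficit was 8.91 ± 0.66 (SD, n = 3).

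The acyltransferase genes were at background in watered rosettes as well. The shared probe set of AT1G03495 and AT1G03940 had 223, 411 and 467 normalized units on water deficit arrays 1, 2 and 3, against -6.61, 2.24 and -0.91 units on watered arrays 1, 2 and 3. Its log2 fold change was at least 4.25 (limma adjusted p = 3.08e-05), and which of the 2 genes gave the signal is unknown. 5MAT, the malonyltransferase, had 51.98, 89.1 and 110 normalized units on water deficit arrays 1, 2 and 3, against -9.35, -1.06 and 1.85 units on watered arrays 1, 2 and 3. The stressed signal of 5MAT was the lowest of the 6 anthocyanin probe sets. Its distance from the floor limits the change that can be shown to a log2 fold change of at least 2.11 (limma adjusted p = 0.000685). With a floor at the 25th percentile of all values (4.40 units) the log2 fold changes of 5MAT, the acyltransferase pair, UGT75C1 and UGT79B1 were 4.18, 6.31, 6.77 and 5.66, while those of DFR and UGT78D2 stayed at 4.65 and 2.44. The order of these 4 bounds was not tested and depended on the floor, although 5MAT had the lowest in both cases.

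**Figure D2:**
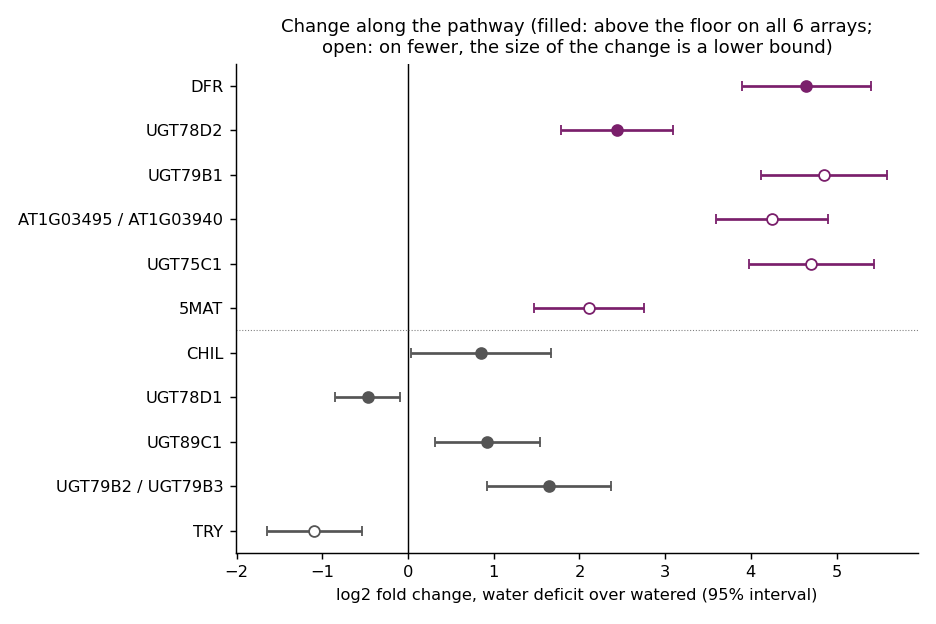
Log2 fold change of water deficit over watered rosettes (horizontal axis) with its unadjusted 95% interval from limma, for the 6 anthocyanin probe sets in pathway order (purple) and for the other measured genes of flavonoid synthesis and its control (grey). Filled points were above the floor on all 6 arrays. Open points were above it on fewer, and each is a lower bound on the size of the change. Their intervals leave out the spread of the group at or near the floor and do not limit how large the change can be. The 6 purple points lie between 2.11 and 4.85. The grey points lie between -1.09, a bound for TRY, and 1.65.

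The 6 anthocyanin probe sets had a median log2 fold change of 4.45, with 0.04 over all tested probe sets. This median mixes 2 measured changes with 4 lower bounds. Of these bounds 3 are from probe sets that could only rise, and UGT79B1 came close to that. The median therefore describes the list and is no comparison with the rest. At a 4-fold change and an unadjusted limma p not above 0.001, all 6 were higher, as were 4.06% of all tested probe sets, and the same limit applies. UGT78D2 ranked 390 among 13703 by the size of the rise. The floor sets the places of the 4 probe sets with a lower bound, so these are not ranked. It also sets the changes of other probe sets at background, so the ranks given for DFR and UGT78D2 hold for this floor only.

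**Figure D3:**
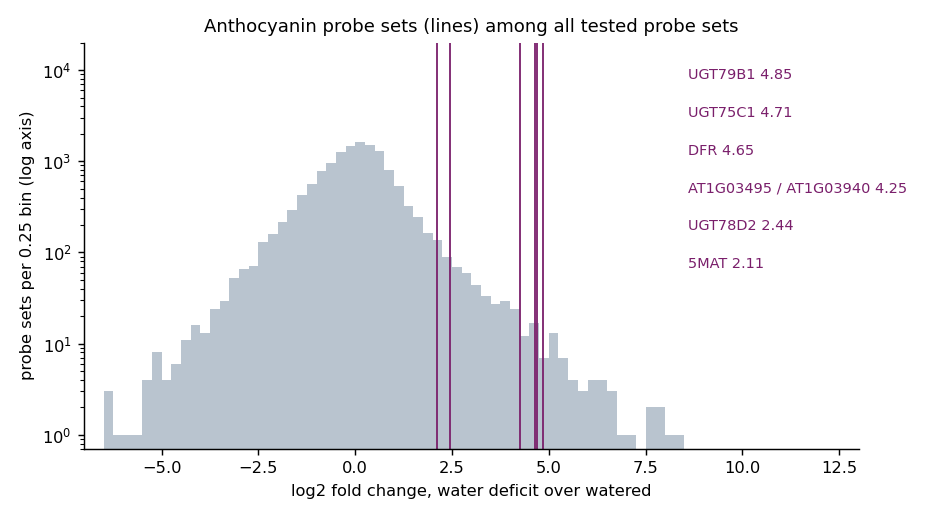
Histogram of log2 fold changes, water deficit over watered, for the 13703 tested probe sets (bins of 0.25, vertical axis logarithmic), with a purple line at each of the 6 anthocyanin probe sets. The lines from 4.25 to 4.85, lie in the sparse right tail, and those of 5MAT and UGT78D2 lie at 2.11 and 2.44.

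The stressed replicates differed in how high the pathway stood, and they did so in the same order for every anthocyanin gene. Water deficit replicate 1 was the lowest and replicate 3 the highest for all 6 probe sets. Replicate 1 lay below the group mean by 0.52 on the log2 scale for DFR, by 0.56 for UGT78D2 and by 0.77 for UGT79B1. Among all 2992 probe sets called higher, replicate 1 was the lowest water deficit array for 43.5% and replicate 3 the highest for 32.4%, and the median deviation of replicate 1 was -0.04. After median scaling both orders again held for all 6 probe sets. With spike-in scaling replicate 1 was lowest for all 6 and replicate 3 highest for 4, and with the deposited values for 6 and 2. Among the 2992 probe sets called higher, replicate 1 was lowest for 58.6% with median scaling, 99.3% with spike-in scaling and 99.2% as deposited. Replicate 3 was highest for 32.2%, 27.5% and 19.1% in the same order. A lowest replicate 1 under spike-in scaling or as deposited is therefore shared by nearly all of them. The 6 probe sets share the same RNA and arrays and are not independent of each other. The replicate 1 arrays were the dimmest of their groups as deposited, with a median of 18.9 units against 51.6 and 45.6 for water deficit replicates 2 and 3, and of 12.6 units against 38.2 and 29.6 for watered replicates 2 and 3, and the part of brightness in this order was not tested.

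Against the watered array of the same number, DFR was higher by 4.39, 4.27 and 5.29 on the log2 scale in replicates 1, 2 and 3, so by this measure replicate 2 had its smallest rise. UGT78D2 was higher by 1.56, 2.70 and 3.06 in replicates 1, 2 and 3, the same order as against the mean of the watered arrays. Among the leaf markers, the Calvin cycle enzyme gene PRK had 2200, 1583 and 1301 normalized units on water deficit arrays 1, 2 and 3, against 4892, 4015 and 3517 units on watered arrays 1, 2 and 3. PRK, the Rubisco activase RCA and the antenna gene LHCB4.1 stood nearest to the watered mean in water deficit replicate 1 after quantile normalization, with log2 differences of -0.90, -0.43 and -0.73. This position depended on the scaling: replicate 1 was the highest water deficit array for all 3 after quantile and median scaling, for none with spike-in scaling or as deposited, and the lowest for all 3 with spike-in scaling and for PRK and LHCB4.1 as deposited. Across the 3154 probe sets called lower, replicate 1 was the highest water deficit array for 38.5%.

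**Figure D4:**
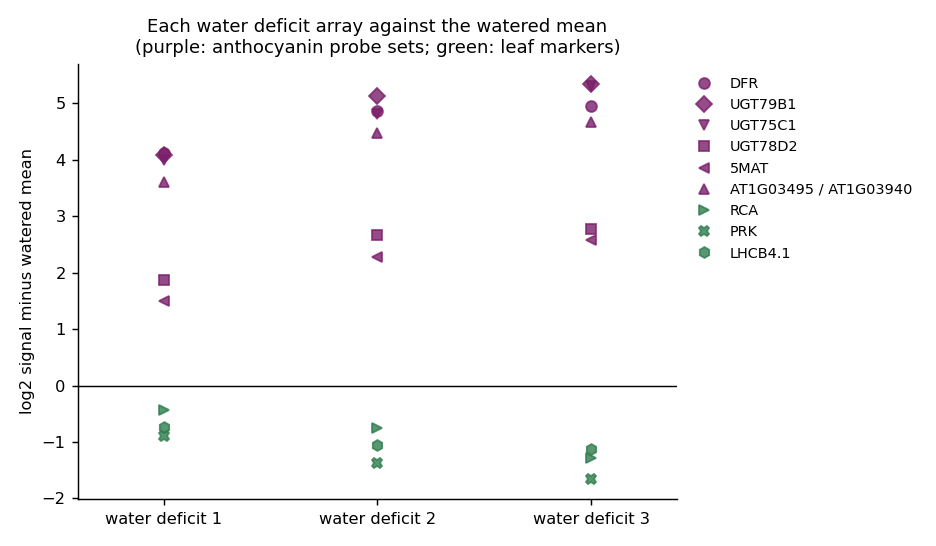
Log2 signal of each water deficit array minus the mean of the 3 watered arrays (vertical axis), for the 6 anthocyanin probe sets (purple) and the 3 measured leaf markers (green), by replicate (horizontal axis). On replicate 1 the anthocyanin probe sets lie between 1.49 and 4.12 and the leaf markers between -0.90 and -0.43, in both cases closest to 0 on this quantile-normalized scale.

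Other steps of flavonoid synthesis could be followed at few genes, because most listed genes were paired with no probe set. Of 5 genes of the early steps 1 was measured: CHIL, a noncatalytic helper of chalcone synthesis, had 185, 364 and 357 normalized units on water deficit arrays 1, 2 and 3, against 217, 177 and 106 units on watered arrays 1, 2 and 3. The groups overlapped through replicate 1, and the log2 fold change of 0.85 ± 0.35 (SE, unadjusted 95% interval 0.03 to 1.67) was not called (limma adjusted p = 0.084, and 0.0322 without water deficit replicate 1). Within arrays the fold of DFR was 13.9 times that of CHIL, with no overlap between groups and the smallest possible exact permutation p of 0.1.

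In the flavonol branch 2 of 8 listed genes were tested, and they differed in direction. UGT89C1, which adds rhamnose to flavonol glycosides, had 193, 296 and 291 normalized units under water deficit, against 169, 142 and 100 units in watered rosettes, in replicate order. Its log2 fold change was 0.93 ± 0.27 (SE, limma adjusted p = 0.0231). The call was lost without water deficit replicate 2 (limma adjusted p = 0.0866) or 3 (0.0839) and without watered replicate 2 (0.0597) or 3 (0.061). UGT78D1, the flavonol 3-O-rhamnosyltransferase and a close relative of UGT78D2, had 129, 118 and 127 normalized units on water deficit arrays 1, 2 and 3, against 175, 164 and 181 units on watered arrays 1, 2 and 3. All 3 stressed arrays were lower and the log2 fold change was -0.47 ± 0.16 (SE, limma adjusted p = 0.0457), but spike-in scaling gave 0.0586 and the unscaled values gave 0.10, so its direction depended on the scaling. Its call was lost without any single array, at adjusted p-values from 0.0578 to 0.127. Of all tested probe sets 23.0% were called lower, and 28.0% had every water deficit array below every watered array. UGT78D2 changed relative to UGT78D1 by 2.91 on the log2 scale, and the within-array differences of 1.46 to 2.39 under water deficit and -1.18 to -0.53 in watered rosettes did not overlap (exact permutation p = 0.1, the smallest possible). The third gene of that subfamily, UGT78D3, did not exceed the floor on any array.

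Of the relatives of UGT79B1, 1 probe set rose and the others stayed at background. UGT79B2 and UGT79B3 are stress-responsive glycosyltransferases of the UGT79B1 subfamily that were not among the chosen genes, and their part in anthocyanin synthesis was not tested. They share 1 probe set, which had 494, 421 and 816 normalized units on water deficit arrays 1, 2 and 3, against 143, 156 and 248 units on watered arrays 1, 2 and 3. It rose 3.13-fold (limma adjusted p = 0.0039), and replicate 3 was the highest array of both groups. UGT79B6 and UGT79B9 of the same subfamily did not exceed the floor on any array. Among 24 other tested genes that the annotation names as UDP-glycosyltransferases, 12 rose, 6 fell and 6 were not called, beside 21.8% higher and 23.0% lower over all tested probe sets. Their median log2 fold change was 0.76 and the highest was 3.54, for UGT76E12. The 3 glycosyltransferases among the genes chosen for this report were at 2.44, at least 4.71 and at least 4.85. This family list was compiled after the values of the anthocyanin genes had been seen and holds only genes whose annotation carries the family name.

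Of 54 genes lying within 3 genes of an anthocyanin gene on the chromosome, 10 were tested, of which 3 rose (limma, adjusted p under 0.05), beside 21.8% of all tested probe sets. None of these 3 lies beside a gene measured here with a probe set of its own: AT5G17190 and AT5G17210 lie on one side of GSTF12, and AT1G03910 is near AT1G03940. UGT78D3 and AT5G17040, which directly precede UGT78D2, did not exceed the floor on any array.

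Of 9 listed repressors of the pathway only TRY was measured, a small MYB protein known for trichome patterning that can hinder the MYB and bHLH activator complexes. TRY had -0.30, 7.23 and 5.94 normalized units on water deficit arrays 1, 2 and 3, against 51.9, 41.4 and 28.4 units on watered arrays 1, 2 and 3. It reached the floor on every stressed array, so only a fall could be seen, and its level was lower by at least 2.13-fold (limma adjusted p = 0.00746). This call was lost with spike-in scaling (log2 fold change -1.44, limma adjusted p = 0.137) and on the unscaled values (-1.37, 0.253), at changes larger than the -1.09 after quantile normalization. None of the 13 listed activators, the 8 genes of phenylpropanoid entry or the 4 genes of sinapoyl and other decoration was paired with a probe set. BAN, the reductase that diverts anthocyanidins to the tannins of the seed coat, did not exceed the floor on any array.

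The 5 genes whose profile over the 6 arrays was most like that of DFR were sought among 7198 other tested genes with 1 probe set of their own, by the root mean square difference of log2 signals centred on each gene's mean. The nearest 2 were UGT75C1, at 0.34, and UGT79B1, also at 0.34. They were followed by AT1G14730 at 0.37, AT1G54120 at 0.38 and the expansin-like gene EXLB1 at 0.40. AT1G14730 stayed at the floor in every watered sample and rose at least 18.9-fold, AT1G54120 exceeded the floor in 2 watered samples and rose at least 21.5-fold, and EXLB1 rose 25.1-fold and was above the floor on all 6 arrays. UGT78D2 and 5MAT came in places 150 and 213, with differences of 1.16 and 1.31. The distance weighs the size of the change above all, and for genes at the floor it depends on where the floor lies. UGT75C1 was at the floor in every watered sample, and UGT79B1 exceeded it in only 1. With the 25th percentile floor their log2 fold changes were 6.77 and 5.66, against 4.65 for DFR. The nearness of these 2 genes to DFR therefore holds for the main floor only, and distances at the other floor were not tested.

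As a check of the tissue, the 3 measured leaf markers of 7 listed, RCA, PRK and LHCB4.1, had between 1301 and 6182 normalized units under water deficit and between 3517 and 9398 units in watered rosettes. All 3 fell, with log2 fold changes of -0.82, -1.31 and -0.97 for RCA, PRK and LHCB4.1 (limma adjusted p = 0.0282, 0.00352 and 0.00348). Under spike-in scaling, where they stood at -0.78, -1.16 and -0.89 in the same order, and on the unscaled values none of the 3 passed the limma test (adjusted p of 0.257 or more). RCA also missed it without water deficit replicate 2 or 3 or watered replicate 1 or 2, at adjusted p-values from 0.0682 to 0.0804. The same held for RCA with the 25th percentile floor (limma adjusted p = 0.0621) and with no filter (0.111). Of 7 epidermis and guard cell markers only FAMA was measured, at 35.0 to 41.8 units under water deficit and 48.6 to 51.6 units in watered rosettes (log2 fold change -0.38, limma adjusted p = 0.103). Of 6 root markers only PYK10 was measured, at 459, 543 and 1214 units on water deficit arrays 1, 2 and 3 and 251, 410 and 858 units on watered arrays 1, 2 and 3 (log2 fold change 0.59, limma adjusted p = 0.369, and 0.0316 with the replicate number as a block). PYK10, a beta-glucosidase of endoplasmic reticulum bodies, was highest in replicate 3 of both groups, and its part in the order of the anthocyanin signals was not tested. No listed flower, seed or senescence marker was paired with a probe set.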

How the data were processed

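The authors extracted total RNA with TRIzol, labelled it as biotinylated cRNA, and used the Affymetrix operating software to produce the probe set values, which went into Rosetta Resolver. The deposited values are background-subtracted intensity per probe set and array on a linear scale, not brought to a common level: medians per array ran from 12.6 to 51.6, and 13.2% to 17.8% of values were at or below 0. The number of arrays limits the precision. No genome build for the probe sets is given in the sources used here, and coordinates are left out. In place of the proprietary ratio model, limma was used.

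Intensities of the 6 arrays were quantile normalized. Values below a floor were set to it before taking log2. This floor of 18.5 units was the highest value of 27 control probe sets for Bacillus transcripts. Probe sets above it on at least 3 of 6 arrays were tested (13703 of 22746, 60.2%) with limma 3.58.1 in R 4.3.3, two-sided, group as the only term, Benjamini-Hochberg adjusted over all tested. The fit was tested on simulated data, with changes added only to probe sets with a watered mean above 6 on the log2 scale. That range holds UGT78D2 but neither DFR nor the probe sets at the floor, whose calls it does not check. For a gene at the floor the SE holds only the spread of the other group and the shared prior. Scaling, floor, filter, variance model, call rule, single arrays and a replicate block were varied. Figures were drawn with matplotlib 3.10.9.

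Within groups Spearman correlations across tested probe sets were 0.909 to 0.973, and no arrays were duplicates. Deviations of same-numbered arrays from their group means correlated at 0.291, 0.23 and 0.393 for replicates 1, 2 and 3. The replicate numbers in the sample titles were therefore taken to pair the arrays in the replicate block and in the exact test within pairs. The main limma fit leaves this pairing out. With the block the limma adjusted p was 0.000153 for DFR and 0.00178 for UGT78D2, and 25.7% of all tested probe sets were called higher.

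Probe sets were named through the platform annotation and an NCBI gene table (TAIR10.1), used for names and gene order: 13513 matched a single gene, 503 several and 8730 none. The members and lists were chosen with earlier results of these data known. The genes named are all members with a probe set, every measured gene of a list with at most 4 measured, and the 5 genes most like DFR.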

Additional observations from a re-analysis of the deposited data

How the results depend on the processing

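All 6 anthocyanin probe sets were called higher under each of the 17 alternatives, including each left-out array, the replicate block and the criteria of a 4-fold change with an unadjusted p not above 0.001. Of all tested probe sets, between 4.06% and 25.7% were called higher under these alternatives. With the main floor UGT75C1, 5MAT and the acyltransferase pair could only rise, and UGT79B1 came close to that, which limits what their repeated calls show. Arrays were left out with the tested probe sets held fixed. Log2 fold changes over these alternatives ran from 4.18 to 5.08 for DFR (adjusted p at most 0.00435) and from 2.26 to 2.96 for UGT78D2 (at most 0.0125). A lower bound moves with the scaling, the floor and the arrays kept. With 16 units added to the values in place of a floor, UGT79B1 stood at 4.43, which is an estimate and no bound. Among genes with a lower bound, the values ran from 1.85 to 4.18 for 5MAT and from 4.01 to 6.31 for the acyltransferase pair. Those of UGT75C1 ran from 4.39 to 6.77 and those of UGT79B1 from 4.43 to 5.66. Over the 4 arrays left without replicate 1 of both groups, where the floor was 11.2 units, these 4 stood at 3.48, 5.63, 6.12 and 5.46. The count over all probe sets depended on scaling: 1344 were higher and 525 lower with spike-in scaling, 1030 and 370 without scaling, against 2992 and 3154, with a median log2 fold change of 0.48, 0.51 and 0.04. The higher count was 2099 with no filter.

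The smaller lists were less stable. Of the early steps 1 gene (CHIL) was called higher without replicate 1 of both groups, and leaving out single arrays gave 0 to 1. The number higher in the flavonol branch was 0 with spike-in scaling, no scaling, the 25th percentile floor, no filter and the 4-fold thresholds, and 0 to 1 with single arrays left out. The number lower there was 0 with median, spike-in and no scaling, the 25th percentile floor, the 4-fold thresholds, without replicate 1 of both groups and with any single array left out. The log2 fold change of UGT78D1 turned to 0.0586 with spike-in scaling and to 0.10 on unscaled values. That of FAMA, which was not called in the main fit, turned to 0.151 and 0.195 under the same settings. With no filter FAMA was called lower (limma adjusted p = 0.0406). UGT89C1 kept its direction throughout (0.72 to 1.49). The call on the UGT79B relatives was 0 at the 4-fold thresholds, and that on TRY among the repressors was 0 with spike-in scaling, without scaling and the 4-fold thresholds. The cause was not tested, beyond the stricter rule at the 4-fold thresholds. With the replicate block the count of anthocyanin probe sets called higher was also 6, where 25.7% of all probe sets were higher, and no call on a pathway list changed.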
